A study of Mus musculus with 16 samples.

Results

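The DNA replication machinery is described here by 44 genes, picked by gene symbol for their known roles, of 54532 genes in the deposited count table. They were read by RNA-seq in 16 tumour libraries from C57BL/6 mice that carried MC38, a mouse colon carcinoma line, in the wall of the descending colon. The tumour cells showed microsatellite instability (MSI, 8 libraries) or chromosomal instability (CIN, 8 libraries). All mice were also given bone marrow derived dendritic cells, injected intraperitoneally on days 1, 6 and 12, and tumours were taken on day 15. The dendritic cells had been loaded for 30 minutes, by lipofection, with 2 µg of DNA from MSI or CIN cells, supplied free or in micronuclei. The groups were therefore MSI tumours with MSI free DNA, MSI micronuclei, CIN free DNA or CIN micronuclei, and CIN tumours with the same 4 kinds of DNA, with 2 libraries in each of the 8 groups. Mice with unstimulated dendritic cells were not analysed here. The labels name 1 line per tumour type, so the effect of the kind of instability and that of any other feature of the line cannot be told apart. RNA of 3 biological replicates was combined for sequencing, and whether every library is a separate pool is not stated. The p-values below thus measure library-to-library spread, which may be technical in part.

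Before a cell divides, the origin recognition complex (Orc1 to Orc6) together with Cdc6 and Cdt1 loads the MCM2-7 ring, the core of the replicative helicase, onto DNA. In S phase Cdc45 and the GINS complex turn the ring into a working helicase, primase and the polymerases copy the strands, and the clamp Pcna, opened by the RFC clamp loader, holds the polymerases in place. RPA covers single-stranded DNA, Fen1 and Lig1 join the lagging-strand fragments, and ribonucleotide reductase (Rrm1, Rrm2), Tyms and Tk1 supply nucleotides. Transcription of most of these genes is switched on by E2F factors when cells enter the cycle, and their transcripts are therefore used as markers of dividing cells.

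The start regions of the genes are shown first, because E2F sites are what this gene set is known for. RefSeq (GRCm38.p6) promoter entries, which span 250 bases before to 50 bases after a gene start, were found for 37 of the 44 genes, and not for Mcm4, Gins1, Gins2, Gins4, Pole, Prim2 and Rfc2. The E2F consensus was searched on both strands as TTTCCCGC, TTTCGCGC, TTTGCCGC and TTTGGCGC. At least 1 of these stood in 15 of the 37 genes (40.5%), against 2.61% of all 27025 genes with an entry. A gene can have several entries, and by entry the shares were 33.3% of the 45 promoters of the 37 genes and 2.27% of all 32851 promoters. In the mitosis list, genes that act later in the cycle, it was 1 of 13 (7.69%). CCAAT, a short promoter element searched on both strands, can share letters with a neighbouring octamer and stood in 62.2% of the 37 genes, against 41.1% of all genes. A match is a string of letters and was not tested as a binding site. The 250 bases before the start are printed 5′ to 3′ on the strand of the gene, with the E2F matches of either strand in capitals. They are shown for an origin-binding gene, a pair of MCM2-7 subunits and the catalytic subunit of polymerase alpha. All of these genes are among the 15 with a match, while Mcm2, Pcna, Pola2 and Rrm2, for example, held none. The coordinates are chr4:108579204-108579453 (plus strand) for Orc1, chr8:75109259-75109508 (plus strand) for Mcm5, chr1:128359706-128359955 (minus strand) for Mcm6 and chrX:93632156-93632405 (minus strand) for Pola1.
Orc1: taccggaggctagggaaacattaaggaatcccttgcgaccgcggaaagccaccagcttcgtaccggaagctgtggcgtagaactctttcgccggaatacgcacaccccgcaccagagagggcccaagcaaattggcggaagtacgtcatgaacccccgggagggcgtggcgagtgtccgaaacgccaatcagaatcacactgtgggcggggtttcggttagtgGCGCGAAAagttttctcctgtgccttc
Mcm5: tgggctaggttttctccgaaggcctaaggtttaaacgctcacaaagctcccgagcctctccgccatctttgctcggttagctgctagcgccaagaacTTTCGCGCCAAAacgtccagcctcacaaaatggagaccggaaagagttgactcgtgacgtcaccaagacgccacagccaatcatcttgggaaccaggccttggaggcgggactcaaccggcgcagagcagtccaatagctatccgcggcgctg
Mcm6: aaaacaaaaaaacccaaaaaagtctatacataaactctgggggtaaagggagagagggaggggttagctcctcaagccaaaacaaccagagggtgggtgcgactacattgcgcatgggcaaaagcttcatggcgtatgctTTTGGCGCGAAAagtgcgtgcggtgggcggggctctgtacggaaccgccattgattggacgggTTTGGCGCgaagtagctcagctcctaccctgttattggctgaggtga
Pola1: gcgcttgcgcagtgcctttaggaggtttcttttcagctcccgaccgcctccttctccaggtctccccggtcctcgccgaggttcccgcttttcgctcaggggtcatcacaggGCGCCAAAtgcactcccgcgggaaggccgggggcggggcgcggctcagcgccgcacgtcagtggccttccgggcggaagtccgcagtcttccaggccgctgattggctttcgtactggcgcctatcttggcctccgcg
Mcm6 held 3 matches, which begin at -110, -106 and -47 from the start, and Mcm5 held 2, at -153 and -149. In both genes the first 2 matches overlap, 1 on each strand, and are printed as 1 run of capitals.

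The 44 genes were read at a depth of 11561955 to 17937501 counts per library, and all 44 passed the filter on low counts that kept 18777 genes. Compared per length as deposited FPKM, over the 16 libraries, Pcna was highest at a mean level of 112.9 ± 25.4 FPKM (SD, n = 16). Mcm6, Mcm5, Mcm3, Mcm7 and Mcm4 followed at levels of 61.9, 54.9, 49.1, 47.7 and 45.1 FPKM, with Rrm2 next at 44.2 FPKM. From Mcm6 to Rrm2, neighbours in this order differed by less than their SD between libraries (9.52 to 18.9 FPKM). The order also depends on the deposited gene length, for Rrm1 (20.9 FPKM) 11012 bases, all its annotated exonic bases. Orc1, the subunit of the origin complex whose level follows the cell cycle, was low at 3.12 ± 0.59 FPKM. Fen1 was lowest at 0.94 ± 0.24 FPKM. Of its annotated exonic bases, 84.2% overlap genes on the other strand, among them Tmem258. No source used here gives the strand setting of the counting, so reads of such partners cannot be assigned with certainty, and the Fen1 values are uncertain. Overlap also covered 67.3% of the exonic bases of Gins2 and 29.8% of those of Orc2, was between 5% and 20% in 10 other genes, under 5% in 4, and absent in 27.

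The 44 genes varied mostly together. Between libraries their log2 CPM (CPM, counts scaled to library size with TMM, prior count 2) had an SD of 0.12 for Pold3 to 0.67 for Pole. A single principal component held 76.1% of their variance and a second one 12.0%. On the first, 43 of 44 genes had the same sign, Rpa3 being the exception with a weight near 0. The signs of the 44 genes in any comparison are therefore not 44 separate observations. Summed, the genes took 0.248 to 0.483% of all counts in MSI tumours (median 0.360%, n = 8) and 0.318 to 0.541% in CIN tumours (median 0.435%, n = 8), and these ranges overlap.

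The level of the whole set moved with tissue markers in both tumour types. The second library of each MSI group had 0.248 to 0.323% of its counts in the 44 genes, and the first 0.396 to 0.483%, with no overlap. In these second libraries the 16 colon epithelium markers, all with counts in every library, summed to 9746 to 14972 CPM, and in the first libraries to 646 to 4483 CPM. The 10 smooth muscle markers summed to 2342 to 5841 CPM in the second and 467 to 1385 CPM in the first libraries. Mitochondrial genes took 2.29 to 3.68% of counts in the second and 1.43 to 1.71% in the first libraries, and the macrophage score (mean log2 CPM of 7 markers) was 6.63 to 7.05 in the second and 7.24 to 7.60 in the first, again with no overlap. Averaged over the 4 MSI groups, 43 of 44 genes were lower in the second library, at a median log2 difference of -0.62, and 40 were lower in all 4 groups. In CIN tumours 31 of 44 were lower in the second library on average, 7 in all 4 groups, with a median of -0.09. There the colon markers summed to 4372 to 10913 CPM in second and 175 to 8269 CPM in first libraries. The CIN library with the lowest colon epithelium score, 2.85, had the highest share of the 44 genes, 0.541%, and the one with the highest score, 8.72, had the lowest, 0.318%. Over all 16 libraries, the 8 with the lowest colon epithelium score had 0.396 to 0.541% of counts in the 44 genes and the 8 with the highest had 0.248 to 0.416%. In bulk tissue a lower share of dividing cells and less RNA per cell cannot be told apart, and the part these markers play in the results below was tested only by the alternatives named there.

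**Figure D1:**
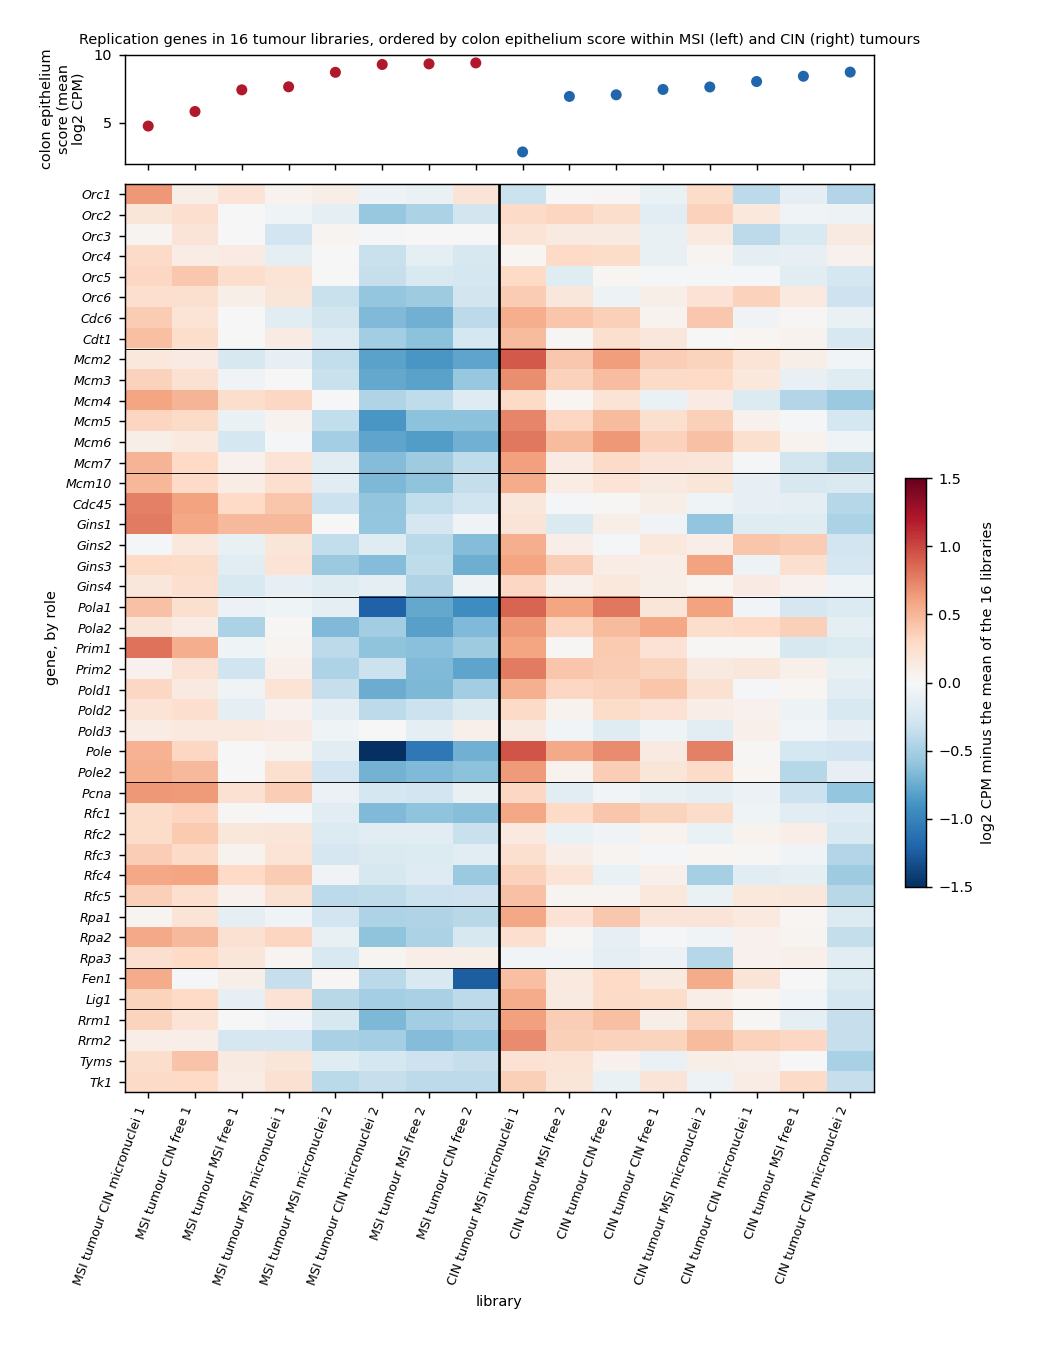
Log2 CPM of the 44 replication genes (rows, by role) minus each gene's mean over the 16 libraries (columns, MSI tumours left and CIN tumours right, each ordered by the colon epithelium score in the top panel, mean log2 CPM of 16 markers). The 4 MSI libraries with scores of 8.70 to 9.39 are blue in nearly every row, and the CIN library with the lowest score is red in nearly every row.

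The tumour comparison set MSI against CIN tumours over all 4 kinds of DNA. Mcm6 and Mcm2, helicase subunits, Pola2, the regulatory subunit of polymerase alpha, and Rrm2, the cell-cycle regulated subunit of ribonucleotide reductase, had the largest differences, each with a lower mean in MSI tumours in all 4 matched pairs of groups. By edgeR's quasi-likelihood test with Benjamini-Hochberg adjustment over all genes, 3 of the 44 fell (Rrm2, Pola2 and Mcm6) and 0 rose. Among all genes 5.8% passed, 3.48% lower and 2.32% higher, so 3 of 44 is near that background. Fold changes were negative for 32 and positive for 12 of the 44, at a median of -0.17, against 0.06 over all genes tested. At an unadjusted p under 0.05 there were 7. The share of all genes at that unadjusted threshold is not given here, so this count has no background beside it. None of the 44 had MSI and CIN libraries whose CPM did not overlap, against 3.11% of all genes.

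The 3 calls mostly did not hold when single libraries were left out, each time with the filter on low counts applied anew. In fits that left out 1 library each, 0 members passed in 12 of 16 fits. The exceptions were the fits without MSI tumour CIN micronuclei 1 (6 members, all lower, and 8.8% of all genes), MSI tumour CIN free 1 (5, all lower, and 6.08%), MSI tumour MSI free 1 (1, Rrm2, and 3.89%) and CIN tumour CIN micronuclei 2 (1, Rrm2, and 3.05%). The fold changes of the 3 called genes stayed negative in all 16, at -0.82 to -0.60 for Mcm6, -0.78 to -0.58 for Pola2 and -0.71 to -0.52 for Rrm2. Without the 4 second libraries of MSI tumours, an alternative chosen after seeing the data, none of these 3 passed, and their fold changes were smaller, at -0.40 for Mcm6, -0.40 for Pola2 and -0.41 for Rrm2. The median of the 44 was 0.04 there, 24 were positive, and 3 other members passed (5.78% of all genes did), all higher: Cdc45 (log2 fold change 0.58 ± 0.10 SE, adjusted p = 0.012), Gins1 (0.75 ± 0.16, 0.03) and Pcna (0.60 ± 0.13, 0.0285). The 5 libraries with a skeletal muscle score above 2 were 1 MSI and 4 CIN libraries, and without them 0 of 44 passed, while 0.696% of all genes did. Both libraries of CIN tumours with MSI micronuclei were among them, so that group was lost. That fit was an additive model of tumour, DNA source and DNA form, so it differs from the main fit in more than these libraries. On all 16 libraries the additive model called 10.4% of all genes. With the colon epithelium and skeletal muscle scores as covariates 8 passed, 6 lower and 2 higher (Gins1 and Pcna), beside 8.77% of all genes. With library number as a block more of the 44 passed than in the main fit, beside 9.47% of all genes. As a block within each tumour type it gave more still, beside 18.3% of all genes, with the counts given in the last section. Endothelium markers were also higher in MSI tumours (5 of 6 called), and their part was not tested. In the fit without the second libraries each MSI group is 1 library and is assumed to vary like the CIN groups.

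Among origin licensing genes 0 of 8 passed, at a median of -0.12. Orc1 had 10.05, 11.5 and 17.1 CPM (lowest, median and highest of 8) in MSI tumours, against 7.90, 9.95 and 13.1 CPM in CIN tumours. Its log2 fold change was 0.29 ± 0.14 (SE, edgeR adjusted p = 0.267), and the groups overlap although its mean was higher in MSI tumours in all 4 matched pairs. Cdc6, the ATPase that joins the origin complex to load the ring, had 19.6, 27.9 and 42.5 CPM in MSI libraries, against 30.5, 37.9 and 47.6 CPM in CIN libraries (-0.38 ± 0.17, adjusted p = 0.235). Cdt1, its partner, had 52.8, 76.4 and 111 CPM in MSI libraries, against 68.5, 83.7 and 113 CPM in CIN libraries (-0.16 ± 0.16). The other Orc genes lay between -0.26 (Orc2) and 0.12 (Orc5), with Orc6 at -0.22, Orc4 at -0.08 and Orc3 at -0.01.

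In the MCM2-7 ring 1 of 6 subunits passed, at a median of -0.44. Mcm6 (chromosome 1, GRCm38, 128331590 to 128359664) had 156, 214 and 308 CPM in MSI tumours, against 267, 366 and 482 CPM in CIN tumours. The highest MSI libraries lie above the lowest CIN libraries. Its means were 223 ± 62.2 CPM in MSI libraries, against 366 ± 72.4 CPM in CIN libraries (SD, n = 8 each), a log2 fold change of -0.70 ± 0.18 (SE, edgeR adjusted p = 0.0494). Mcm2 (chromosome 6, 88883474 to 88898780) had 75.6, 112.5 and 155 CPM in MSI libraries, against 135, 178 and 263 CPM in CIN libraries. It had the same fold change as Mcm6, -0.70 ± 0.19, and did not pass (adjusted p = 0.0565). Mcm5 had 117, 183 and 268 CPM in MSI libraries, against 178, 259.7 and 356 CPM in CIN libraries (-0.43 ± 0.20, adjusted p = 0.236). Mcm7 had 132, 201 and 296 CPM in MSI libraries, against 155, 231 and 319.9 CPM in CIN libraries (-0.13 ± 0.19, adjusted p = 0.691). Mcm3 was at -0.45 and Mcm4, the exception in sign, at 0.20.

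**Figure D2:**
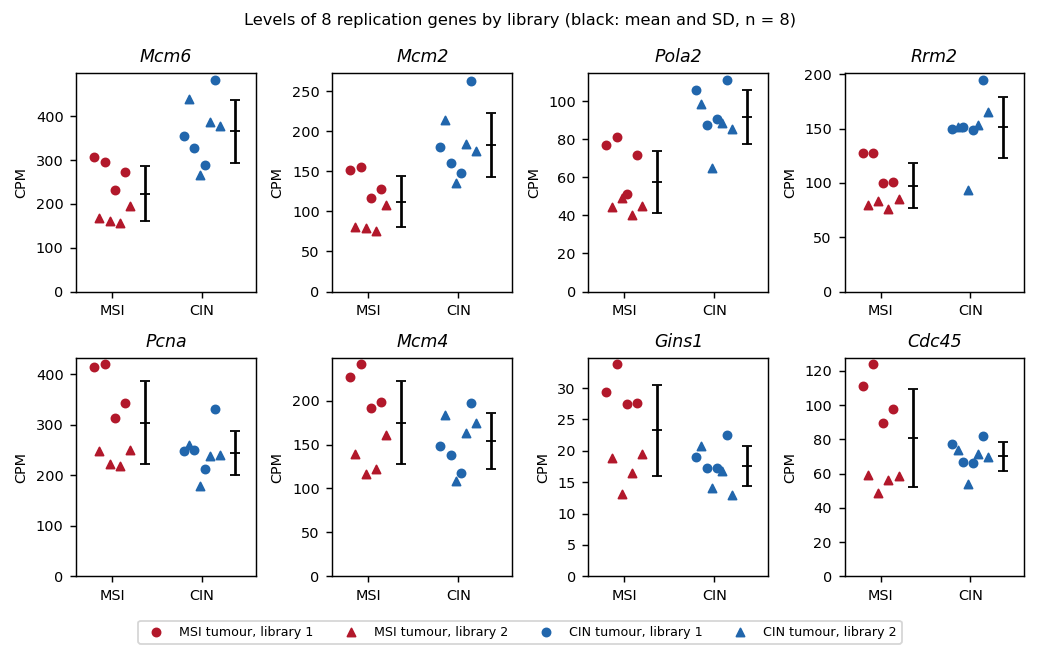
CPM of 8 replication genes in every library of MSI tumours (red, left) and CIN tumours (blue, right), with circles for first and triangles for second libraries of a group and bars for mean and SD (n = 8). MSI circles lie above MSI triangles in all 8 panels, while circles and triangles mix in CIN tumours, and the MSI mean is lower in the top row and higher in the bottom row.

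Of the helicase activation genes 0 of 6 passed, at a median of -0.15. Cdc45, which completes the helicase with GINS, had 48.5, 74.5 and 124 CPM in MSI libraries, against 54.1, 70.5 and 82.2 CPM in CIN libraries (0.20 ± 0.22, adjusted p = 0.581). The CIN libraries lie inside the MSI range. Gins1 had the largest positive difference of the 44, 0.41 ± 0.22 (adjusted p = 0.304), with 23.3 ± 7.25 CPM in MSI libraries, against 17.6 ± 3.22 CPM in CIN libraries (SD, n = 8 each). The other GINS genes were at -0.38 (Gins3), -0.34 (Gins2) and -0.19 (Gins4), and Mcm10, a factor that helps the helicase start, was at -0.11. The estimates of the 4 GINS genes thus did not share a sign, but none of them passed, and Gins2 has the overlap named above.

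Of the polymerase and primase genes 1 of 9 passed, at a median of -0.38. Pola2 (chromosome 19, 5940543 to 5964206) had 40.3, 50.2 and 81.1 CPM in MSI tumours, against 64.6, 89.7 and 111 CPM in CIN tumours. Its log2 fold change was -0.67 ± 0.16 (SE, edgeR adjusted p = 0.0387). Pola1, the catalytic subunit of the same polymerase, had 35.6, 76.2 and 112 CPM in MSI libraries, against 69.6, 109.5 and 151 CPM in CIN libraries (-0.57 ± 0.26, adjusted p = 0.238). The primase genes Prim1 and Prim2 were at -0.14 and -0.53, the second with an adjusted p of 0.103. Pold1, the catalytic subunit of polymerase delta, had 59.9, 88.3 and 125 CPM in MSI libraries, against 89.1, 121 and 146 CPM in CIN libraries (-0.38 ± 0.18, adjusted p = 0.242). Pole, its counterpart in polymerase epsilon, had 35.3, 94.6 and 144 CPM in MSI libraries, against 82.2, 129 and 193 CPM in CIN libraries (-0.54 ± 0.30, adjusted p = 0.317). Pold2, Pold3 and Pole2 were at -0.16, 0.10 and -0.19.

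Clamp and clamp loader genes had a median of 0.04, and 0 of 6 passed. Pcna (chromosome 2, 132249162 to 132253314) had 219, 282 and 421 CPM in MSI tumours, against 179, 244 and 332 CPM in CIN tumours (0.31 ± 0.17, SE, edgeR adjusted p = 0.314). Its mean was higher in MSI tumours in all 4 matched pairs, although the libraries overlap. The loader genes Rfc1 to Rfc5 were at -0.33, 0.05, 0.03, 0.23 and -0.11. Of the 3 RPA genes 0 passed. Rpa1 was at -0.38 (adjusted p = 0.112) and Rpa3 at 0.19, while Rpa2 had 37.2, 59.5 and 84.1 CPM in MSI libraries, against 44.3, 56.6 and 67.6 CPM in CIN libraries (0.09 ± 0.19, adjusted p = 0.777).

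The fragment joining genes Fen1 and Lig1 did not pass. Lig1, the DNA ligase of replication, had 86.8, 104 and 155 CPM in MSI libraries, against 103, 134 and 182 CPM in CIN libraries (-0.24 ± 0.16, adjusted p = 0.402). Fen1, with the overlap named above, had 0.87, 2.04 and 3.36 CPM in MSI libraries, against 1.91, 2.52 and 3.35 CPM in CIN libraries (-0.36 ± 0.25, adjusted p = 0.405). Of the nucleotide supply genes 1 of 4 passed. Rrm2 (chromosome 12, 24708241 to 24714146) had 76.0, 92.8 and 128 CPM in MSI tumours, against 93.9, 151 and 195 CPM in CIN tumours. Its log2 fold change was -0.62 ± 0.15 (SE, edgeR adjusted p = 0.0347), and 1 CIN library, CIN tumour CIN micronuclei 2, holds the lowest CIN value. Rrm1, the large subunit of the same enzyme, had 142.5, 206.5 and 288 CPM in MSI libraries, against 179, 264 and 349 CPM in CIN libraries (-0.32 ± 0.18, adjusted p = 0.303). Tyms, which makes thymidylate, had 40.3, 50.9 and 69.1 CPM in MSI libraries, against 36.4, 53.8 and 59.8 CPM in CIN libraries (-0.004 ± 0.15, adjusted p = 0.992). Tk1, which recycles thymidine, had 71.5, 88.6 and 117 CPM in MSI libraries, against 74.4, 105 and 122 CPM in CIN libraries (-0.13 ± 0.16, adjusted p = 0.639).

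Other genes of the pathway gave few calls, and these were not followed through the fits with libraries left out. Among all genes 3.48% were lower and 2.32% higher in this comparison. Of 30 further replication factors 0 passed, at a median of -0.10. At an unadjusted p under 0.05 there were 6, again without the share of all genes at that threshold. The most abundant of them, Samhd1, which degrades nucleotides, and Dnmt1, the maintenance DNA methyltransferase, were at 0.31 and -0.29. Of 19 regulators of S-phase entry 2 fell, E2f8 and E2f2. E2f8, a repressor of the E2F family, had 44.8 ± 8.15 CPM in MSI libraries, against 69.6 ± 11.6 CPM in CIN libraries (SD, n = 8 each, -0.63 ± 0.15 SE, edgeR adjusted p = 0.0321). E2f2, an activator, had 32.5 ± 9.66 CPM in MSI tumours, against 50.7 ± 6.65 CPM in CIN tumours (-0.65 ± 0.17, adjusted p = 0.0487). Ccnd1 and Cdk4, cyclin D1 and its kinase, were at -0.54 and 0.34 and did not pass. Of 15 mitosis genes 1 fell, the kinetochore gene Cenpf (-0.76 ± 0.19, adjusted p = 0.0436), and the list's median was 0.01. Top2a and Mki67, its most abundant genes, were at -0.52 (adjusted p = 0.187) and -0.59 (adjusted p = 0.0742).

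Since most of the variation was shared, the 44 genes were also compared relative to their own sum, with the library size set to the summed counts of the 44 in each library. This asks which genes take a larger or smaller part of the set, and the genes themselves are part of the sum. By edgeR's quasi-likelihood test with Benjamini-Hochberg adjustment, 10 of 44 passed, 6 higher and 4 lower in MSI tumours. Among all genes 7.3% passed under this scaling, 5.2% higher and 2.1% lower. Those shares are no like-for-like background, since only the 44 have their common variation removed. The median of all genes was 0.35 under this scaling, against 0.06 under TMM, and that of the 44 was 0.08. A sign here is thus a sign against the set, and 14 genes that were lower under TMM were higher against the set.

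Mcm6 (-0.46 ± 0.07, adjusted p = 0.00531), Mcm2 (-0.46 ± 0.08, 0.00812), Pola2 (-0.43 ± 0.10, 0.0255) and Rrm2 (-0.36 ± 0.09, 0.0419) fell against the set. Pcna (0.56 ± 0.07, adjusted p = 0.00182), Mcm4 (0.44 ± 0.08, 0.00983), Gins1 (0.63 ± 0.12, 0.0137), Rfc4 (0.47 ± 0.11, 0.0351), Orc5 (0.37 ± 0.09, 0.0362) and Cdc45 (0.41 ± 0.10, 0.0398) rose against it. All 10 had the same sign under TMM. Leaving out 1 library, Mcm2, Mcm4, Mcm6 and Pcna passed in all 16 fits and Gins1 in 15, missing the threshold without CIN tumour CIN free 2 (adjusted p = 0.0521). The others passed in 5 (Pola2), 3 (Rrm2, Rfc4) and 2 (Cdc45, Orc5) of 16. Without the 5 libraries with a high skeletal muscle score, in the additive model, 0 of 44 passed, and 0.65% of all genes. Without the second MSI libraries, where 2.43% of all genes passed, only Pcna (0.57) and Cdc45 (0.54) did, with Mcm6 at -0.43 (adjusted p = 0.0605), Mcm2 at -0.43 (0.0752) and Mcm4 at 0.46 (0.0576). Scaled to the summed pathway genes outside the 44, also added after seeing the data, 7 passed, 3 higher and 4 lower, beside 6.44% of all genes.

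**Figure D3:**
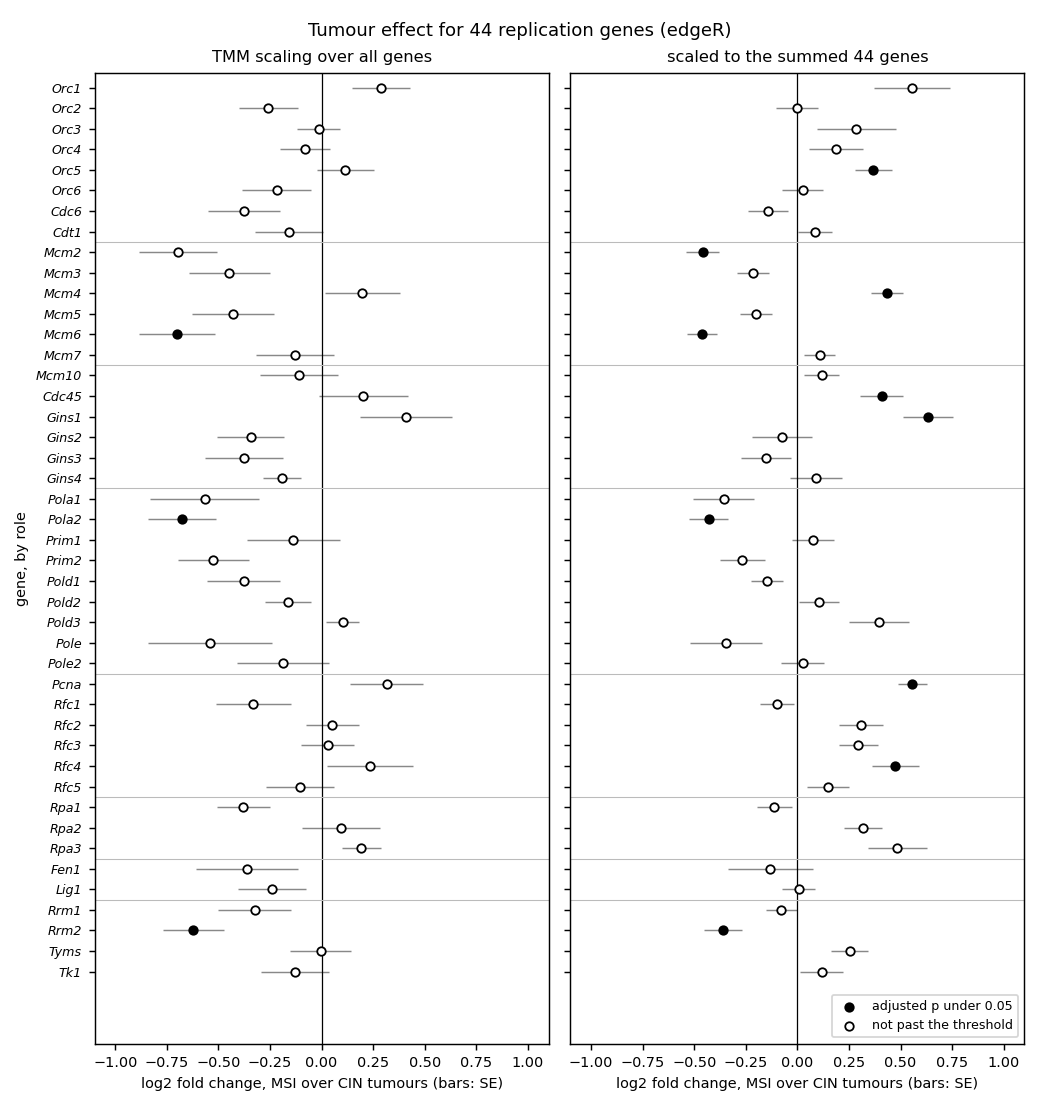
Log2 fold change of MSI over CIN tumours for the 44 replication genes (bars: SE, filled: edgeR adjusted p under 0.05), under TMM scaling (left) and relative to the summed 44 genes (right). The bars of most genes are shorter on the right, where 10 genes are filled, against 3 on the left, and Mcm2 and Mcm6 lie opposite Mcm4 in both panels.

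As a share of the summed counts of the 44 genes, 8 genes had MSI and CIN libraries that did not overlap (Mcm2, Mcm4, Mcm5, Mcm6, Cdc45, Gins1, Pola2 and Pcna). Among all genes, expressed against the same sum, 3.13% did not overlap. That share is no like-for-like background either, since only the 44 have their common variation removed. Pcna took 7.94, 8.57 and 8.90% of the sum (lowest, median and highest of 8) in MSI tumours, against 5.42, 5.76 and 6.37% in CIN tumours. Mcm6 took 5.91, 6.15 and 6.70% in MSI tumours, against 7.94, 8.58 and 9.31% in CIN tumours. For both genes the lowest library of the higher group lies above the highest of the other, unlike their CPM levels.

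The MCM2-7 ring, whose protein holds 1 copy of each subunit, showed the same at the level of its transcripts. As a share of the summed FPKM of the 6 subunits, which does not depend on library scaling, Mcm4 made up 19.1, 19.6 and 20.5% (lowest, median and highest of 8) in MSI tumours, against 12.6, 13.3 and 14.5% in CIN tumours. Mcm7 made up 17.5, 18.7 and 19.2% in MSI and 15.3, 15.6 and 16.9% in CIN tumours. Mcm6 made up 18.2, 19.2 and 20.8% in MSI and 23.7, 24.5 and 25.2% in CIN tumours. In MSI tumours Mcm4, Mcm5, Mcm6 and Mcm7 thus stood at nearly equal shares, while in CIN tumours Mcm6 was highest in every library. This order between subunits depends on the deposited gene lengths (6956 bases for Mcm2 and 3589 for Mcm4), which count all annotated exonic bases. Mcm2 averaged 6.48 ± 0.31% in MSI tumours, against 8.19 ± 0.37% in CIN tumours (SD, n = 8 each). Mcm3 averaged 16.9 ± 0.52% in MSI tumours, against 18.1 ± 0.39% in CIN tumours. Mcm5, with a highest MSI library at 20.2% and a lowest CIN library at 19.5%, was the 1 subunit of 6 whose libraries overlapped. Of all genes expressed against the same FPKM sum, 3.21% did not overlap. This too is no like-for-like background, since only the subunits have their common variation removed. The 6 shares sum to 100, so a larger share of 1 subunit lowers those of the others. The share of Mcm4 in MSI tumours ran from 19.1 to 20.2% in first and 19.6 to 20.5% in second libraries, and these ranges overlap, unlike those of the summed level of the set.

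**Figure D4:**
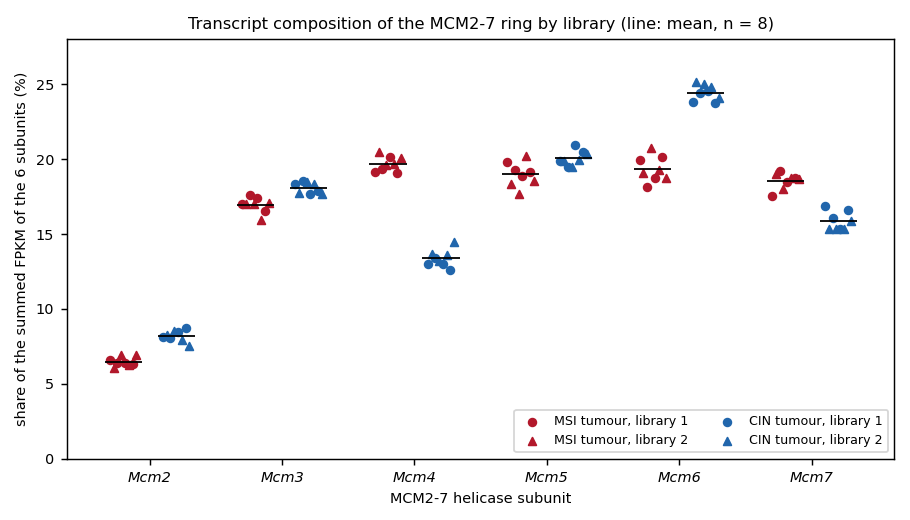
Share of each MCM2-7 subunit in the summed FPKM of the 6 subunits (%, y axis) in every library of MSI tumours (red, left of each pair) and CIN tumours (blue), with circles for first and triangles for second libraries and lines for means (n = 8). The libraries separate for every subunit but Mcm5, with the widest gap in Mcm4, at 19.1 to 20.5% in MSI and 12.6 to 14.5% in CIN tumours.

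Set beside the other genes of their chromosome, an arrangement made after the values were seen and given with no test, 22 of the 44 members had the sign of their chromosome's median and 22 had the opposite sign. The medians of chromosomes 5, 6, 7, 11, 12 and X were 0.02 to 0.04, below that of all other genes. For members there the sign depends on where 0 is set, so the even split does not show whether members follow their chromosome. On chromosome 16 the median log2 fold change of 581 other tested genes was 0.26, and 7.92% were higher and 0.688% lower in MSI tumours. Mcm4, Cdc45 and Rfc4, which lie there, were at 0.20, 0.20 and 0.23. On chromosome 2 the median was 0.16, with Pcna at 0.31 and Gins1 at 0.41, but Mcm10 at -0.11 and Orc4 at -0.08. Chromosomes 1 and 8 had medians of -0.12 and -0.14, and all members on them were negative (Mcm6, Prim2, Mcm3 and Orc2, and Mcm5, Gins3, Gins2, Orc6, Gins4 and Cdt1). Chromosome 10 had the highest median, 0.27, and its member Prim1 was at -0.14. Mcm2, Pola2 and Rrm2 were also opposite in sign to the medians of their chromosomes 6, 19 and 12, which were 0.03, 0.13 and 0.04. The median over all other genes was 0.06, above those of chromosomes 6 and 12.

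**Figure D5:**
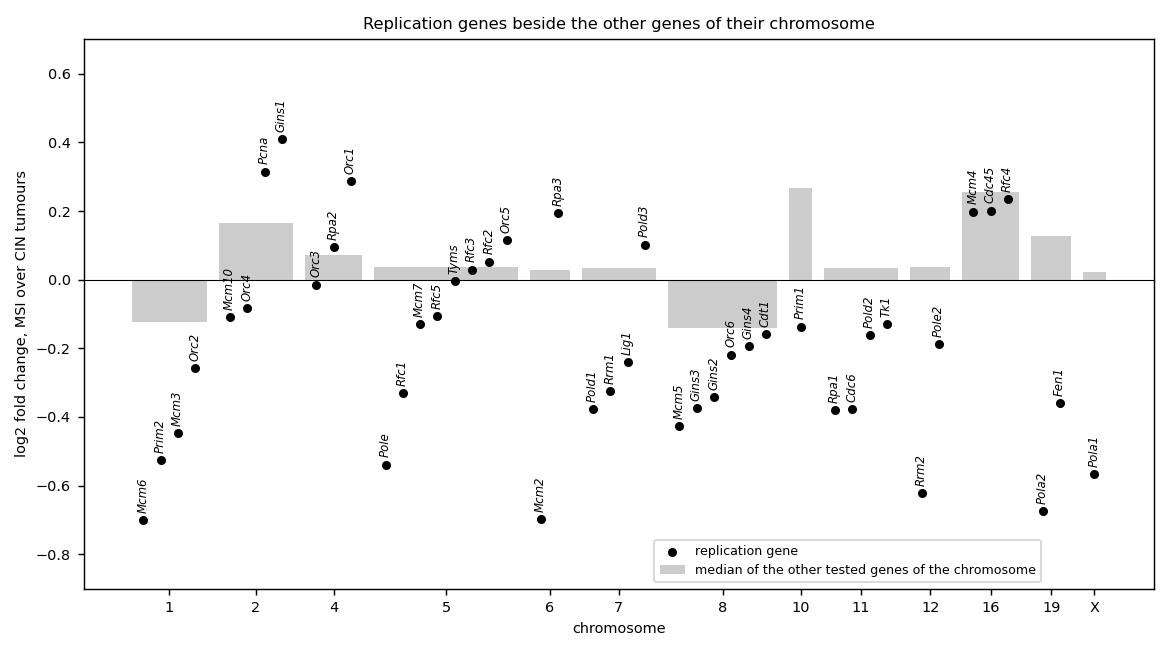
Log2 fold change of MSI over CIN tumours for each replication gene (points), by chromosome, with grey bars for the median of the other tested genes of that chromosome. The 3 genes of chromosome 16 lie close to its median of 0.26, and Mcm2, Rrm2 and Pola2 lie far from those of chromosomes 6, 12 and 19.

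The DNA source comparison asked whether DNA of MSI rather than CIN cells, carried by dendritic cells, left tumours with other levels of these genes. No difference was detected. With edgeR 0 of 44 members passed, 0 at an unadjusted p under 0.05, and DESeq2 called 0, while 0.0% of all genes passed. The median of the 44 was 0.02 for MSI over CIN DNA, against -0.03 over all genes. The smallest p-values were those of Gins4 (-0.13 ± 0.09 SE, unadjusted p = 0.175) and Gins3 (0.21 ± 0.19, unadjusted p = 0.301), both subunits of GINS. The colon epithelium markers had a median of -0.27 and the B and plasma cell markers -0.71 in the same comparison, with 0 called, and their part was not tested.

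Within the tumour types the sign of the source effect differed, and this difference was not called. In MSI tumours the median of the 44 was -0.11 for MSI over CIN DNA, negative in 42, and in CIN tumours 0.16, positive in 42. In both, edgeR and DESeq2 called 0 of 44 and edgeR 0.0% of all genes. The tumour by source interaction, halved to the scale of a mean difference, was negative in all 44 at a median of -0.14, with 0 called by either tool and 0 at an unadjusted p under 0.05. The smallest p-values were those of Gins4 (-0.18, unadjusted p = 0.0804) and Rrm2 (-0.24, 0.123), and 0.0% of all genes passed. With 76.1% of the variance on 1 component, these signs are not separate observations. In the same interaction the 13 skeletal muscle markers tested were all negative, at a median of -2.04 with 5 at an unadjusted p under 0.05 by edgeR, and the B and plasma cell markers had a median of 0.92. None was called, and their part was not tested. Summed, the 44 replication genes took 0.259 to 0.416% of counts with MSI DNA and 0.248 to 0.483% with CIN DNA in MSI tumours (n = 4 each). In CIN tumours it was 0.366 to 0.541% with MSI DNA and 0.318 to 0.455% with CIN DNA, and both pairs of ranges overlap.

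Gins4 in MSI tumours was the 1 member of 44 with an unadjusted p under 0.05, no more than this threshold passes by chance. It had 27.4, 26.3, 25.5 and 21.8 CPM with MSI DNA, against 33.8, 27.2, 35.7 and 28.3 CPM with CIN DNA. The log2 fold change was -0.31 (edgeR unadjusted p = 0.0364), and only the highest library with MSI DNA reaches past the lowest with CIN DNA. Prim1 followed there at -0.44 (unadjusted p = 0.2). In CIN tumours Gins3 had 26.3, 26.5, 20.6 and 22.6 CPM with MSI DNA, against 16.5, 14.6, 18.6 and 18.8 CPM with CIN DNA. Gins3 was the 1 member of 44 whose libraries did not overlap in this comparison, against 1.33% of all genes, and the test did not pass (0.49, edgeR unadjusted p = 0.0967). Rrm2 was next, at 0.28 (unadjusted p = 0.205).

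The DNA form comparison set free DNA against micronuclei, and again 0 of 44 members passed by edgeR (0 unadjusted) or DESeq2, with 0.0% of all genes passing. The median of the 44 was -0.03. Rpa3, the smallest RPA subunit (0.11, unadjusted p = 0.254), and Fen1 (-0.21, 0.419) had the smallest p-values. Within MSI tumours the median was -0.06, with Rpa3 at 0.14 (unadjusted p = 0.311) and Pola2 at -0.23 (0.35). Within CIN tumours it was 0.03, with Orc1 at 0.15 (unadjusted p = 0.461) and Rfc4 at 0.20 (0.52). The tumour by form interaction had a median of -0.05, with Pola2 at -0.19 (unadjusted p = 0.277) and Orc1 at -0.13 (0.381). The source by form interaction was negative in 41 of 44, at a median of -0.16, with Pold2 at -0.21 (unadjusted p = 0.0892) and Rpa1 at -0.21 (0.133). There the colon epithelium and smooth muscle markers were all positive, at medians of 0.63 (16 markers) and 0.53 (10 markers), with 0 called, and their part was not tested. In each of the form comparisons within a tumour type and both interactions with form, edgeR and DESeq2 called 0 of 44, none had an unadjusted p under 0.05, and 0.0% of all genes passed by edgeR. Scaled to the summed 44 genes, an alternative added after seeing the data, 0 of 44 passed in any comparison of DNA source or form.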

How the data were processed

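The authors deposited counts per gene and FPKM per gene for the 16 libraries. Reads were processed with featureCounts 1.5.0-p3, HISAT2 2.0.5 and fastp and build GRCm39, per the submitters' processing notes, which give no order, but 53499 of 54409 shared identifiers had the coordinates of GENCODE M21, so positions are given as GRCm38. The deposited FPKM equal counts over gene length and 1 total per library (relative tolerance 1e-06), and served for levels between genes. In both files 4 columns matched no sample and were not used.

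From the counts (11561955 to 17937501 per library), edgeR 4.0.16 (R 4.3.3, limma 3.58.1) fitted 8 group means to 18777 genes that passed filterByExpr, with TMM scaling and robust quasi-likelihood tests. P-values, unadjusted ones included, come from these fits, and the threshold was an adjusted p of 0.05 by Benjamini-Hochberg over all genes. Interactions were halved. The fits were tested on simulated data. DESeq2 1.42.0 was an alternative, beside other scaling, no filter, replicate blocks, an additive model, tissue covariates and left-out libraries. All fits without the muscle-rich libraries (skeletal muscle score above 2) used the additive model.

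The members and lists were chosen with earlier results of these data known. Named genes were all members in the tumour comparison, the called members and the 2 with the smallest p elsewhere, and of each pathway list the called genes and the 2 most abundant. The chromosome arrangement was chosen after values were seen. The common biological coefficient of variation was 0.43.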

Additional observations from a re-analysis of the deposited data

Results flagged for a closer look

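Of 62 groups of 8 libraries checked for a library far from the rest, 2 held one, and chance flags about 1 in 20 groups. Orc1 stood at 17.1 CPM in MSI tumour CIN micronuclei 1, with the nearest MSI library at 12.5 CPM. Rrm2 stood at 93.9 CPM in CIN tumour CIN micronuclei 2, with the nearest CIN library at 149 CPM.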

How the results depend on the processing

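For MSI over CIN tumours, the count of 3 called members was 6 with DESeq2 (12.2% of all genes), 5 with no filter (3.29%), 0 without the 5 muscle-rich libraries (skeletal muscle score above 2, 0.696%) and 8 with tissue scores as covariates (8.77%), and ran from 0 to 6 with 1 library left out. Relative to the summed members, the count of 10 was 16 with DESeq2 (14.9%), 3 with no filter (2.7%), 0 without the muscle-rich libraries (0.65%) and 2 without the second MSI libraries (2.43%), and ran from 4 to 17 with 1 library left out. Same-numbered libraries deviated together in MSI tumours (correlations of 0.40 to 0.80 over 6 pairs) but not in CIN tumours (-0.33 to 0.38), so numbers were not taken as pairing between tumour types. Within MSI tumours 0 members were called with the block too. For the tumour comparison, 6 of 44 members passed with the replicate block, beside 9.47% of all genes. With the block within each tumour type 14 of 44 passed (18.3% of all genes), or 20 of 44 relative to the sum (25%). Both the member counts and the shares of all genes were larger than in the main fits. Without the second MSI libraries, chosen after seeing the data, the members' median was 0.042, 24 members were positive in place of 12, and among those that turned positive were Cdt1 (0.11), Mcm7 (0.17), Lig1 (0.039), Tyms (0.23) and Tk1 (0.14). Tyms, at -0.004, was also 0.057 without the muscle-rich libraries and 0.046 with covariates. With 1 library left out, Tyms ran from -0.11 to 0.089, Cdc45 from -0.0014 to 0.34 and Rpa2 from -0.078 to 0.22. The causes were not tested. No member was called for DNA source, form or their interactions in 220 alternative fits of 9 comparisons, also added ones. Depth limits Fen1 and Orc1 most, the members with the lowest levels.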
